A study of Homo sapiens with 18 samples.

Results

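The cytochrome P450 (CYP) genes were examined in EpCAM+ cells sorted from the human hepatocellular carcinoma (HCC) lines Huh1 and Huh7. A gene was included when the symbol of its RefSeq accession was CYP followed by a family number, a letter and a member number. Pseudogenes and the sterol and bile acid enzymes CYP7A1, CYP8B1 and CYP51A1 were left out. This rule named 51 genes on the array, measured by 67 probes, among 19720 named genes and 42327 probes in all. Another gene that meets the rule, CYP2A6, was not analysed here.

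Each line was cultured as a control, for which no culture time is labelled, or for 48 hours with disulfiram (DSF, an inhibitor of aldehyde dehydrogenase used against alcohol dependence) at 0.1 µM or with 5-fluorouracil (5-FU, a pyrimidine analogue used in chemotherapy) at 1 µM. Cells carrying EpCAM, a surface protein used to mark tumor-initiating HCC cells, were then collected by cell sorting, and their RNA was hybridized to 1-color arrays. There were 3 arrays in each of the 6 groups, 18 in all, from experiments that the submitters call independent. According to the methods of the study DSF was given together with copper chloride, and the treatment of the control cells is not stated, so DSF and copper cannot be told apart. Both lines are established hepatoma lines kept in culture, and genotypes beyond the line names are not given.

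P450 enzymes are heme proteins that insert an oxygen atom into their substrates. Families CYP1 to CYP3 mostly oxidize drugs, carcinogens and other foreign compounds, and the liver is their main site. CYP4 enzymes hydroxylate fatty acids and eicosanoids, and the higher families make or break down steroid hormones, bile acids, vitamin D and retinoic acid. Many are switched on by ligand-activated factors: the aryl hydrocarbon receptor (AHR) controls CYP1 genes, and the receptors PXR (NR1I2) and CAR (NR1I3) control CYP2B, CYP2C and CYP3A genes.

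Levels are given as the log2 of the processed spot signal minus the 75th percentile of the same array, so that 1 unit is a 2-fold step and 0 is a bright probe. The level of a probe was compared between arrays and never with that of another probe. A gene stands for its brightest probe. Changes are differences of group means on this log2 scale with their standard error (SE), and a change was called when its limma p, adjusted over the 29894 tested probes, lay under 0.05. The smallest two-sided p of an exact permutation test between groups of 3 arrays is 0.1, and calls therefore come from the model, which pools the variance over the 6 groups.

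Some arrays stood apart from their replicates, and this touches many values below. Over the 26 CYP genes well above background on every array, Huh1 control replicate 1 lay more than 0.5 from the mean of the other arrays of its group for 8 genes. This number was 5 for Huh1 control replicate 2 and Huh1 5-FU replicate 1, 4 for Huh7 5-FU replicate 3, 3 for Huh7 5-FU replicate 1, 0 for the Huh1 DSF and Huh7 control arrays, and 0 to 2 for the others. Within some groups a pair of arrays was much closer than the remaining array: over all such probes the spread of the pair was 0.07 for Huh1 5-FU replicates 2 and 3 but 0.26 for replicates 1 and 2. Replicate spread may therefore be partly technical. Huh1 arrays lay on slide 1 apart from DSF replicate 3. Huh7 arrays lay on slide 2 apart from DSF replicates 2 and 3, which were on slide 3, so cell line and slide cannot be told apart in the control groups. Markers were set against the labelled cell type. All 11 hepatocyte and hepatoma markers tested, albumin and EPCAM among them, were well above background on all 18 arrays. Of 11 markers of other cell types, 5 were also so on all 18 arrays, namely PTPRC, CD14 and CD68 of leukocytes and PECAM1 and CDH5 of endothelium, whereas VWF was so on 13, COL1A1 and DCN of fibroblasts on 11 each, CD3E of T cells on 6, ACTA2 of stellate cells on 4 and COL1A2 on 2.

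Most CYP genes were measurable. Of the 51 genes, 39 were tested, because in 1 or more groups every array showed them well above background, and 26 were so on all 18 arrays. The other 12 were not tested: CYP2E1, CYP3A43, CYP4A22, CYP4B1, CYP4F22, CYP4X1, CYP4Z1, CYP7B1, CYP11B1, CYP11B2, CYP27C1 and CYP46A1. Of these, CYP4B1, CYP4F22 and the adrenal enzymes CYP11B1 and CYP11B2 were not well above background on any array. CYP2E1, an ethanol-oxidizing enzyme abundant in adult hepatocytes, was well above background on 1 Huh1 control array and 2 Huh7 control arrays. CYP2C8 and CYP3A4 were tested only because a drug group lifted them above background on all 3 arrays.

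**Figure D1:**
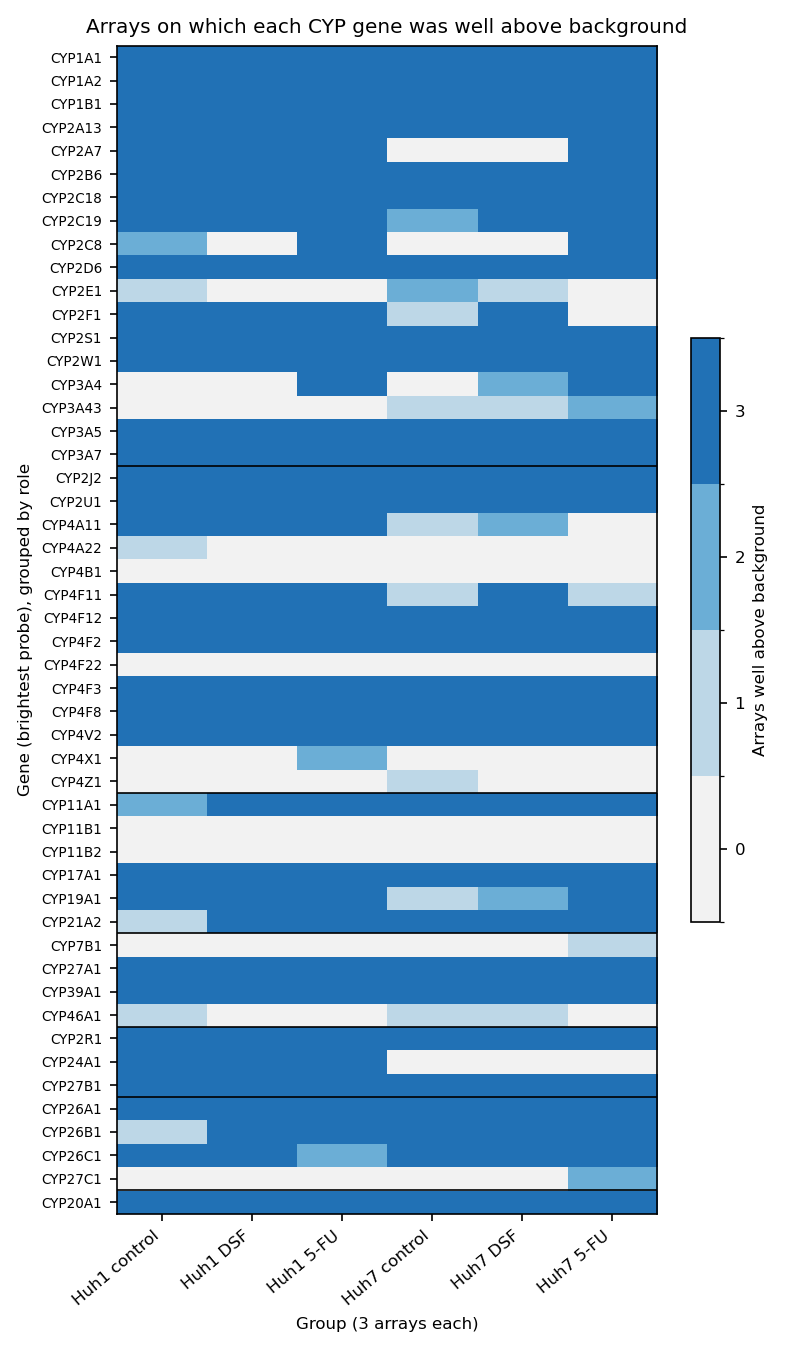
Number of arrays (0 to 3, color) on which the brightest probe of each of 50 CYP genes was well above background, in each of the 6 groups (columns), with genes in rows and lines between roles. CYP24A1 was detected in the Huh1 groups and on 0 Huh7 arrays, and CYP2C8 and CYP3A4 reached 3 arrays in the 5-FU groups.

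The control groups of the lines differed widely in CYP expression, and most genes were lower in Huh7. Of 39 tested genes 27 were lower in Huh7 control than in Huh1 control and 8 were higher, where 36.2% and 34.5% of all tested probes were called lower and higher. Among the 26 genes above background on every array, 19 were lower and 4 were higher (39.9% and 33.1% of all probes held to that filter). The median difference (Huh7 minus Huh1) was -1.54 over the 39 genes and -0.05 over all tested probes. Members of the drug-oxidizing CYP2 and CYP3 families and all 7 tested CYP4 genes, which act on fatty acids, were among those lower in Huh7 by their brightest probes. The second probe of CYP4F2 was 1.22 higher in Huh7 control, so the direction of that gene is not settled.

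The sharpest contrast was CYP24A1, the mitochondrial enzyme that inactivates vitamin D. Its levels in Huh1 control were 0.24, 1.14 and 1.23, and in Huh7 control -8.06, -7.42 and -7.80, where the probe was not well above background. It was at least 202-fold higher in Huh1 control, counting the Huh7 arrays at the lowest signal that was well above background (or at the level of the probe where that was higher), as for every bound given here. The adjusted p was 1.76e-11.

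CYP4F11, a fatty acid hydroxylase, stood at 1.15, 1.05 and 1.09 in Huh1 control and at -5.85, -6.50 and -5.56 in Huh7 control, a difference of -7.06 (SE 0.59, adjusted p = 5.09e-08) with only 1 of the 3 Huh7 arrays well above background. CYP2A7, an inactive relative of the nicotine oxidase CYP2A6, was at least 29.7-fold lower in Huh7 control, where no array showed it well above background. The estrogen- and carcinogen-oxidizing enzyme CYP1B1 differed by -4.18 (SE 0.22) and CYP2C18 by -4.17 (SE 0.16), each 18.1-fold.

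The genes higher in Huh7 control were CYP1A1, CYP2D6, CYP2R1, CYP2U1, CYP11A1, CYP21A2, CYP26B1 and CYP26C1. The largest of these differences was that of CYP26B1, which breaks down retinoic acid. Huh1 control arrays read -6.66, -5.70 and -6.24 and Huh7 control arrays -2.98, -3.21 and -3.08, a difference of 3.11 (SE 0.19, adjusted p = 1.49e-09), with only 1 of the 3 Huh1 control arrays well above background, so its size is uncertain. CYP11A1, the enzyme that starts steroid hormone synthesis from cholesterol, was 2.30 higher in Huh7 control (SE 0.18) and CYP2D6, which oxidizes many cardiac and psychiatric drugs, 1.19 higher (SE 0.09). CYP1A1 was 1.15 higher (SE 0.25). No slide held both control groups, so no within-slide value exists. With slide as a block in the fit the numbers were 5 higher and 23 lower. Of all 29894 tested probes 8183 were then called higher and 8598 lower, beside 10322 and 10809 without the block. In the fit with the block CYP1A1 kept 1.12 but lost its call (adjusted p = 0.0638). That fit takes the step from slide 1 to slide 2 only from Huh1 DSF replicate 3, set against replicates 1 and 2. The call of CYP3A4 as lower in Huh7 control rests on 2 groups in which it was not well above background on any array, so no level is given.

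**Figure D2:**
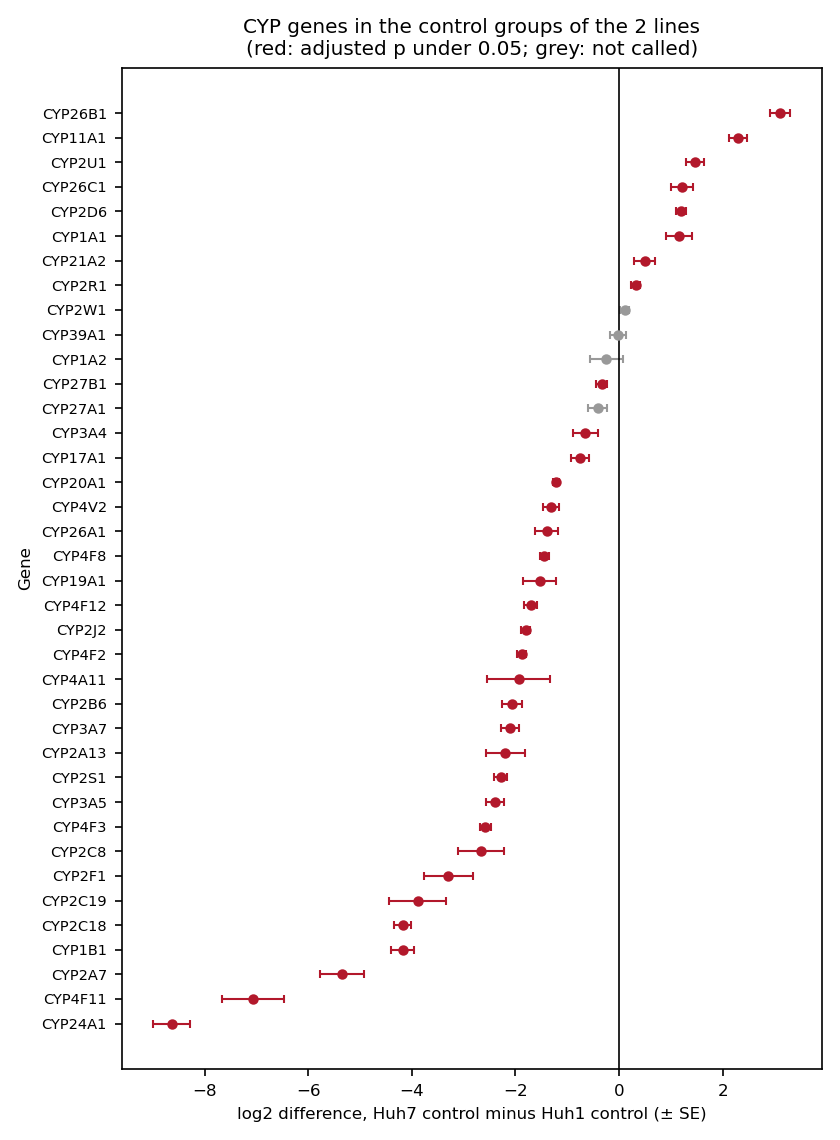
Difference in level between the Huh7 and Huh1 control groups (x axis, log2, ± SE, 3 arrays per group) for 38 tested CYP genes, sorted, with called genes in red and the others in grey. CYP24A1 (-8.63, a value below background in Huh7) and CYP4F11 (-7.06) lie at the lower end and CYP26B1 (3.11, with 1 of 3 Huh1 control arrays well above background) at the upper end.

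DSF changed CYP genes in both directions. In Huh1, 9 of 39 genes rose and 11 fell, against 23.9% and 20.3% of all tested probes. In Huh7, 8 rose and 7 fell, against 27.3% and 19.4%. Among the 26 genes above background on every array, 5 rose and 10 fell in Huh1 (24.3% and 25.6% of all probes held to that filter), and 6 rose and 7 fell in Huh7 (32.0% and 21.2%). The median change over the 39 genes was 0.03 in Huh1 and -0.08 in Huh7, beside 0.00 and 0.08 over all tested probes. Called in both lines were the rises of CYP1A1, CYP1B1 and CYP11A1 and the falls of CYP2J2, CYP2R1, CYP2U1, CYP4F12, CYP4F2 and CYP4F8. CYP4F3 and CYP4V2 were called in opposite directions. The share of all tested probes called in both lines is not given here, so these lists only name genes. Without Huh1 control replicate 1 and Huh1 5-FU replicate 1 the numbers in Huh1 were 11 higher and 11 lower (24.9% and 20.4% of all tested probes). Scaling changed the numbers for the CYP genes and for all probes. In Huh1 median scaling left 6 rises and 15 falls (15.9% and 32.2% of all tested probes), quantile normalization 7 and 13 (21.7% and 23.9%), and spike-in scaling 10 and 6 (23.6% and 8.02%). In Huh7 spike-in scaling gave 7 and 10 (3203 and 6132 of the 29894 tested probes). Of 11 hepatocyte and hepatoma markers 9 were called lower after DSF in Huh1 and 5 in Huh7, with 0 and 2 higher. Of 9 tested markers of other cell types, 1 was called higher and 2 lower in each line. The part of these markers in the CYP values was not tested.

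5-FU raised more CYP genes than it lowered. In Huh1, 16 of 39 genes rose and 7 fell, where 22.2% of all tested probes rose and 26.0% fell. In Huh7, 24 rose and 6 fell, against 27.3% and 29.7%. CYP2C8 and CYP3A4 passed the filter only through the 5-FU groups, so their rises in these counts were partly set by the filter. Among the 26 genes above background on every array, 12 rose and 7 fell in Huh1 (24.6% and 30.7% of all probes held to that filter) and 18 rose and 4 fell in Huh7 (30.0% and 34.4%). The median change was 0.51 in Huh1 and 0.50 in Huh7 over the 39 genes and -0.03 and -0.05 over all tested probes. Rises called in both lines included CYP1A1, CYP2B6, CYP2C8, CYP2C18, CYP2J2, CYP2S1, CYP3A5, CYP3A7, CYP19A1, CYP20A1, CYP21A2, CYP27B1 and CYP39A1. CYP2D6 and CYP2U1 fell in both lines. The share of all tested probes called in both lines is not given here, so these lists only name genes. Without Huh1 control replicate 1 and Huh1 5-FU replicate 1, 15 rose and 8 fell in Huh1 (23.4% and 25.0% of all tested probes). Markers moved as well. Of the 11 hepatocyte and hepatoma markers 3 rose and 4 fell after 5-FU in Huh1, and 7 rose and 2 fell in Huh7, FGB by 1.40, TTR by 1.28 and APOA1 by 0.88 among the rises. Of the 9 tested markers of other cell types 1 rose and 2 fell in Huh1. In Huh7 DCN (3.32), CD68 (1.59) and PECAM1 (1.02) rose and VWF fell. Summed over a list on the linear scale, where 1 is the 75th percentile of an array, the 11 markers of other cell types came to 2.1 to 2.13 in Huh7 control and 3.46 to 5.1 after 5-FU, and the hepatocyte and hepatoma markers to 1182 to 1204 and 1272 to 1435. The part of these markers in the CYP values was not tested.

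These 5-FU changes are relative to the bulk of probes on an array. Relative to the added spike-in controls, the 75th percentile of the 5-FU arrays lay at -2.45 to -2.02 log2, above that of the control arrays at -3.27 to -3.10. Scaled to the spike-ins, the median change of all probes after 5-FU was 0.80 in Huh1 and 0.94 in Huh7, and the CYP genes called in Huh1 became 30 rises and 0 falls, and those in Huh7 32 rises and 1 fall, where 74.8% and 76.7% of all tested probes rose and 1.22% and 3.47% fell. Falls after 5-FU given below hold under scaling to the 75th percentile. Under spike-in scaling those of CYP2D6, CYP2R1, CYP2U1, CYP4F12, CYP4F2, CYP4F8 and CYP4V2 in Huh1 and of CYP2W1, CYP17A1 and CYP26C1 in Huh7 turned positive.

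**Figure D3:**
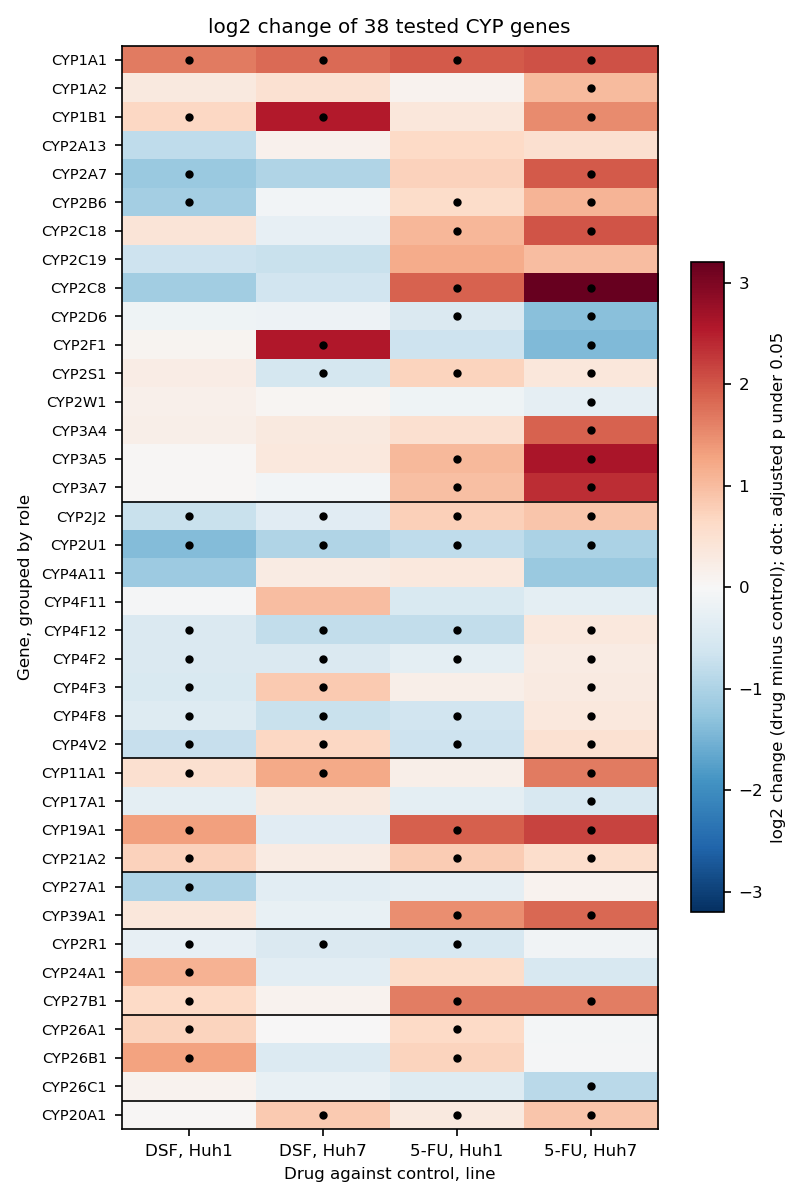
Change of each of 38 tested CYP genes (rows, grouped by role) after DSF or 5-FU in Huh1 and Huh7 (columns), as the log2 difference from the control group of the same line (color), with a dot where the adjusted p lay under 0.05. CYP1A1 is red and CYP2U1 blue in all 4 columns, and the CYP2C and CYP3A rows are red mainly in the 5-FU columns.

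CYP1A1, which oxidizes polycyclic hydrocarbons and is the classical AHR target, was the only gene called higher for both drugs in both lines. In Huh1 its levels were 0.02, -0.01 and -0.01 in control, 1.66, 1.63 and 1.67 after DSF, and 1.22, 2.33 and 2.32 after 5-FU. In Huh7 they were 1.18, 1.08 and 1.20 in control, 3.04, 2.91 and 2.96 after DSF, and 2.88, 3.01 and 3.69 after 5-FU. No treated array overlapped the control arrays of its line, and the lowest 5-FU value in Huh1 was that of replicate 1. The changes after DSF were 1.65 in Huh1 and 1.82 in Huh7, and after 5-FU 1.96 and 2.04 (SE 0.25 each), or 3.15-, 3.52-, 3.89- and 4.12-fold. The change did not differ detectably between the lines for DSF (difference 0.16, SE 0.35) or for 5-FU (0.09, SE 0.35).

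Promoters were looked at because CYP1A1 and CYP11A1 rose and CYP2J2 fell after DSF in both lines. RefSeq windows (GRCh38.p14, 250 bases before to 50 after the start) were matched for 37 of the 51 genes. The AHR-ARNT core, spelled GCGTG and searched on both strands, was found in 10 of these 37 windows (27%) and in 36.3% of 27305 windows of all genes. It is shown in capitals, in the orientation in which it was read, in the 250 bases before the start of 3 genes, the minus-strand regions chr15:74725529-74725778 (CYP1A1), chr15:74367647-74367896 (CYP11A1) and chr1:59926774-59927023 (CYP2J2).
CYP1A1: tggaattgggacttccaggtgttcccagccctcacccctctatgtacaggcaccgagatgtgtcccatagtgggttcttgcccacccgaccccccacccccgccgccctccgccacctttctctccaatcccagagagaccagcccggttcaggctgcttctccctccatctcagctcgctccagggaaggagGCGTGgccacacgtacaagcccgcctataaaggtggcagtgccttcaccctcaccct
CYP11A1: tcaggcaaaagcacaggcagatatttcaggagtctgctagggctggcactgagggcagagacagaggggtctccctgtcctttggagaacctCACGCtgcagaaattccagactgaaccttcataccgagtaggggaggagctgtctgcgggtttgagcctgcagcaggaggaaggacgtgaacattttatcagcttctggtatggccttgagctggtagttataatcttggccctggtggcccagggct
CYP2J2: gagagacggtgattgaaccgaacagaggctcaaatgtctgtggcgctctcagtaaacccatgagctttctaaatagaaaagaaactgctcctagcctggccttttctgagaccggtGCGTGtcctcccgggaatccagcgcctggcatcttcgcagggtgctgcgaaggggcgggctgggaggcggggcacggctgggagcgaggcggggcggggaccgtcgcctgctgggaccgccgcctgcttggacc
CYP1B1, which also rose after DSF in both lines, had no matched window, and bases further upstream were not searched for any gene. Whether AHR acts on these genes was not tested. A match says only that these letters are present. The metal response core (TGCACNC or TGCGCNC) was found in 8 of the 37 windows (21.6%, against 29.3% of all), the NRF2-type motif TGACNNNGC in 5 (13.5%, against 13.6%), and the retinoic acid receptor DR5 repeat in 0, with 1 match among all windows.

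CYP1B1 rose after DSF in both lines and after 5-FU in Huh7. Its Huh7 levels were -2.77, -2.81 and -2.67 in control, -0.07, -0.27 and -0.27 after DSF, and -1.45, -1.36 and -0.91 after 5-FU, so the 3 groups did not overlap. The changes in Huh7 were 2.55 after DSF (SE 0.22, 5.85-fold) and 1.51 after 5-FU (SE 0.22). In Huh1 the control arrays read 2.12, 1.06 and 1.1 and the DSF arrays 2.13, 2.10 and 2.03, so that replicate 1 of the control lay among the DSF arrays. The change of 0.66 there (SE 0.22, adjusted p = 0.0251) lost its call within slide 1 (0.69, adjusted p = 0.0687). After 5-FU in Huh1 the change was 0.37 (adjusted p = 0.187), and without control replicate 1 it was 0.71 (adjusted p = 0.00084). CYP1A2, which metabolizes caffeine, was called only after 5-FU in Huh7, at 1.01 (SE 0.32, adjusted p = 0.0136). Its 5-FU arrays there read -3.02, -2.74 and -1.27 against -3.28, -3.46 and -3.34 in control, so the size rests on replicate 3.

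**Figure D4:**
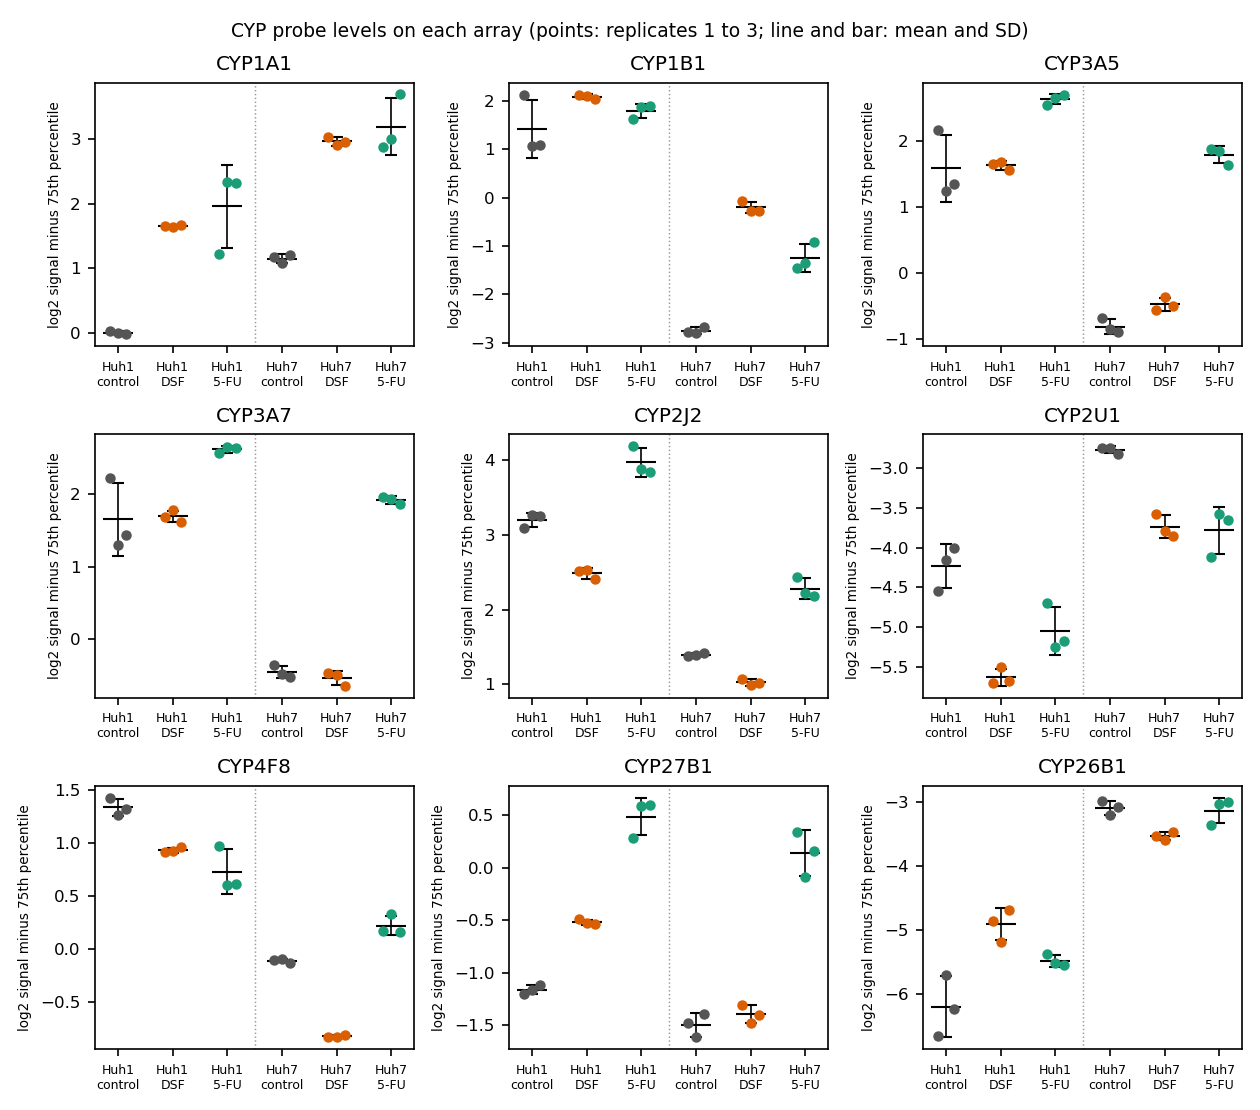
Level (y axis, log2 signal minus the 75th percentile of the array) of 9 CYP genes on each of the 18 arrays, by group on the x axis, with points for replicates 1 to 3 from left to right and a line and bar for mean and SD (n = 3). Huh1 control replicate 1 lies apart from the other control arrays for CYP1B1, CYP3A5 and CYP3A7, and the treated arrays of CYP1A1 lie above the control arrays in both lines.

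Genes of the CYP2C cluster on chromosome 10, whose products clear a large part of prescribed drugs, rose after 5-FU. CYP2C18 rose by 1.06 in Huh1 and 2.01 in Huh7 (SE 0.16 each), with no overlap in either line. For CYP2C8, which oxidizes paclitaxel and arachidonic acid, 0 of the 3 Huh7 control arrays and all 3 5-FU arrays were well above background, and the gene was at least 4.13-fold higher after 5-FU. In Huh1 CYP2C8 rose by 1.89 (SE 0.44), with 2 of 3 control arrays well above background. CYP2C8 passed the filter only through the 5-FU groups, so these rises were partly set by the filter and are no separate support. CYP2C19 changed by 1.18 in Huh1 and 1.00 in Huh7 (SE 0.55 each) and was not called.

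After DSF no change of CYP2C8, CYP2C18 or CYP2C19 was called in either line. CYP2C18 changed by 0.40 in Huh1, a value that became 0.65 (adjusted p = 0.000391) without control replicate 1, and by -0.25 in Huh7. CYP2C8 was not well above background on any DSF array of either line, and changed by -1.1 (adjusted p = 0.0576) in Huh1.

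The CYP3A genes on chromosome 7, whose products metabolize more drugs than those of any other P450 subfamily, also rose after 5-FU and more so in Huh7. CYP3A5 levels in Huh7 were -0.68, -0.85 and -0.90 in control and 1.88, 1.85 and 1.65 after 5-FU, a change of 2.60 (SE 0.18, adjusted p = 2.02e-08) or 6.07-fold. CYP3A7, the fetal liver form, went from -0.36, -0.47 and -0.52 to 1.97, 1.93 and 1.86, a change of 2.37 (SE 0.17) or 5.17-fold. In Huh1 the changes were 1.04 (SE 0.18) for CYP3A5 and 0.96 (SE 0.17) for CYP3A7, with the 5-FU arrays at 2.55 to 2.69 and 2.57 to 2.65 above all control arrays, of which replicate 1 read 2.17 and 2.23. The second probe of CYP3A5 rose by 1.64 and 2.48 and that of CYP3A7 by 1.57 and 3.02 in Huh1 and Huh7. CYP3A4, the main adult form, was at least 3.08-fold higher after 5-FU in Huh7, where 0 of 3 control arrays and 3 of 3 5-FU arrays were well above background. CYP3A4 passed the filter only through the 5-FU groups, so its rise was partly set by the filter and is no separate support. After DSF no brightest probe of a CYP3A gene was called in either line, but second probes were: that of CYP3A5 rose by 0.61 in Huh1 (adjusted p = 0.0103) and by 0.57 (adjusted p = 0.0152) in Huh7. That of CYP3A7 changed by -0.65 (adjusted p = 0.00163) in Huh7. The DSF values of the brightest probes in Huh1 were 0.04 for both CYP3A5 and CYP3A7, and without control replicate 1 they were 0.33 (adjusted p = 0.0103) and 0.32 (adjusted p = 0.00461).

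Genes of these clusters resemble each other closely, and cross-hybridization of a probe cannot be told apart from expression of its own gene because probe sequences were not used here. The promoters of CYP3A7 and CYP3A4, which both rose after 5-FU in Huh7, are set side by side here as a close pair. They do not bear on what a probe binds, and the likeness of the transcripts was not measured. Of 249 aligned bases 236 were identical (94.8%) in the minus-strand regions chr7:99735197-99735446 (CYP3A7) and chr7:99784185-99784434 (CYP3A4) of GRCh38.p14. Capitals mark bases that are not identical or not aligned between the pair.
CYP3A7: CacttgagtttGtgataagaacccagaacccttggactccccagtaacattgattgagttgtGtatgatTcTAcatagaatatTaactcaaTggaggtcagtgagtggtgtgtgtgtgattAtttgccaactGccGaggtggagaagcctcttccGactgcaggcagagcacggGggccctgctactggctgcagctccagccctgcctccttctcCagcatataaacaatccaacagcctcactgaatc
CYP3A4: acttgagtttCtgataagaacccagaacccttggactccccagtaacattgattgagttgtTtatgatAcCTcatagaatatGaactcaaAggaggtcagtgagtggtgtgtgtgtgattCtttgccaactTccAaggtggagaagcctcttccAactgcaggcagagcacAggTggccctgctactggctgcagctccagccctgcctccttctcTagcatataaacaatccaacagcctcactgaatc
The values of CYP2A, CYP2B6, CYP2C, CYP2D6, CYP3A, CYP4A, CYP4F and CYP21A2 are uncertain for this reason, since each has near copies or pseudogenes.

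Other drug-oxidizing genes varied. CYP2B6, which activates cyclophosphamide and is a CAR target, stood at 5.50, 6.46 and 6.46 in Huh1 control and at 5.07, 5.05 and 5.02 after DSF, a change of -1.09 (SE 0.19, adjusted p = 0.000378). After 5-FU it rose by 0.59 in Huh1 (SE 0.19, adjusted p = 0.0226) and 1.08 in Huh7 (SE 0.19, adjusted p = 0.000253). The Huh1 value was 0.27 (adjusted p = 0.0532) without control replicate 1 and 0.48 (adjusted p = 0.0805) without 5-FU replicate 1, so the call rests on those arrays. The second probe of CYP2B6 was called after 5-FU in neither line, at 0.33 (adjusted p = 0.28) in Huh1 and 0.28 (adjusted p = 0.328) in Huh7, and fell by 1.08 after DSF in Huh1, close to the brightest. CYP2D6 fell after 5-FU by 0.46 in Huh1 and by 1.33 in Huh7 (SE 0.09 each). Its Huh7 levels were -1.63, -1.66 and -1.82 in control, -3.16, -2.99 and -2.97 after 5-FU, and -1.97, -1.81 and -1.79 after DSF, where it was not called. Under spike-in scaling the Huh1 change of CYP2D6 became 0.37. Its second probe was called in Huh7 (-1.72) and not in Huh1 (-0.45, adjusted p = 0.0848).

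CYP2S1, an epithelial enzyme acting on retinoids and eicosanoids, rose after 5-FU by 0.72 in Huh1 and 0.36 in Huh7 (SE 0.12 each), and its second probe by 0.62 in Huh1 with 0.34 in Huh7 (adjusted p = 0.0571). After DSF it fell in Huh7 by 0.57 (SE 0.12). CYP2F1, a lung enzyme, was called after DSF in Huh7 and not in Huh1, and the changes differed by 2.50 (SE 0.66, adjusted p = 0.00837). Huh7 DSF replicates 2 and 3 lay on another slide than the Huh7 controls. Its Huh7 DSF arrays read -4.03, -3.96 and -3.66 against -5.04, -6.85 and -7.48 in control, of which 1 of 3 was well above background, and the change was 2.57 (SE 0.47, adjusted p = 0.000484). After 5-FU it was at least 1.71-fold lower than in Huh7 control, a call lost without control replicate 1 (-0.70, adjusted p = 0.0804). CYP2A7 fell after DSF in Huh1 by 1.20 (SE 0.43, adjusted p = 0.0363), a call lost within slide 1 (-1.23, adjusted p = 0.0855), and was at least 2.87-fold higher after 5-FU in Huh7. CYP2A13 was called after neither drug in either line, but without Huh1 control replicate 1 its change of -0.80 after DSF became -1.33 (adjusted p = 0.0023). CYP2W1, an enzyme of fetal gut and of tumors, had levels between 7.54 and 8.07 on all 18 arrays and 1 call after a drug, -0.28 after 5-FU in Huh7 (SE 0.09), which became 0.27 under quantile normalization and 0.70 under spike-in scaling.

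Enzymes of fatty acid and eicosanoid metabolism were called lower more often than higher after DSF. Of 9 tested genes 7 fell and 0 rose in Huh1, where 20.3% and 23.9% of all tested probes were called lower and higher, and 5 fell and 2 rose in Huh7 (19.4% and 27.3%). After 5-FU 5 fell and 1 rose in Huh1 (26.0% and 22.2%), whereas 6 rose and 1 fell in Huh7 (27.3% and 29.7%). The falls after 5-FU in Huh1 all turned positive under spike-in scaling.

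CYP2U1, which hydroxylates long-chain fatty acids, was the only gene called lower for both drugs in both lines. In Huh1 it stood at -4.54, -4.16 and -4.00 in control, -5.70, -5.50 and -5.68 after DSF, and -4.70, -5.25 and -5.18 after 5-FU. In Huh7 the levels were -2.75, -2.74 and -2.82 in control, -3.57, -3.79 and -3.85 after DSF, and -4.12, -3.57 and -3.65 after 5-FU. No treated array reached a control array of its line. DSF lowered it by 1.39 in Huh1 and by 0.96 in Huh7, and 5-FU by 0.81 and 1.01 (SE 0.17 each), whereas under spike-in scaling the 5-FU values were 0.02 and -0.03.

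CYP2J2, the epoxygenase that makes epoxyeicosatrienoic acids, went in opposite directions with the drugs. Huh1 levels were 3.09, 3.27 and 3.25 in control, 2.51, 2.53 and 2.41 after DSF, and 4.19, 3.88 and 3.84 after 5-FU. Huh7 levels were 1.38, 1.40 and 1.41 in control, 1.07, 0.99 and 1.02 after DSF, and 2.44, 2.22 and 2.18 after 5-FU. The groups did not overlap in either line. DSF changed it by -0.72 in Huh1 and -0.37 in Huh7, and 5-FU by 0.77 and 0.89 (SE 0.09 each). Within slide 2, where only replicate 1 of Huh7 DSF was left, the Huh7 value for DSF was -0.32. Compared directly, DSF lay below 5-FU by 1.48 in Huh1 (adjusted p = 2.3e-08) and by 1.26 in Huh7 (adjusted p = 4.83e-08).

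The CYP4F genes on chromosome 19, which inactivate leukotrienes and hydroxylate fatty acids and vitamins E and K, fell after DSF in Huh1 for 4 of 5 tested members, where 20.3% of all tested probes fell. CYP4F8 read 1.42, 1.26 and 1.32 in Huh1 control and 0.91, 0.92 and 0.96 after DSF, and in Huh7 -0.10, -0.09 and -0.13 in control and -0.82, -0.83 and -0.81 after DSF. These changes were -0.40 and -0.71 (SE 0.09 each). CYP4F12 changed by -0.47 and -0.80 (SE 0.12 each) and CYP4F2 by -0.47 in each line (SE 0.09). CYP4F3 fell by 0.49 in Huh1 but rose by 0.83 in Huh7 (SE 0.11 each), where its levels went from -1.74, -1.83 and -1.75 to -1.06, -0.84 and -0.91. The brightest probe of CYP4F11 was called after neither drug. In Huh1 it nevertheless went without overlap from 1.15, 1.05 and 1.09 in control to 0.66, 0.59 and 0.55 after 5-FU. Its SE pools all 6 groups, and the SD of the Huh7 5-FU arrays was 1.79. The second probe of CYP4F11 was at least 1.97-fold higher after DSF in Huh7 (adjusted p = 5.92e-07), where no control array showed it well above background. It fell by 0.82 after 5-FU in Huh1 (adjusted p = 0.00137).

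After 5-FU the same genes split by line. CYP4F8 fell by 0.60 in Huh1 and rose by 0.33 in Huh7, CYP4F12 fell by 0.80 and rose by 0.35, and CYP4F2 fell by 0.32 and rose by 0.27. The changes differed between the lines by 0.93, 1.15 and 0.59. Under spike-in scaling the Huh1 values became 0.22, 0.03 and 0.51. The probes of CYP4F2 disagreed. Its second probe was not well above background on any Huh7 array after either drug and was at least 14.6-fold lower after 5-FU than in Huh7 control (adjusted p = 1.38e-09), opposite to the brightest probe, and at least 13.9-fold lower after DSF (adjusted p = 1.01e-08). In Huh1 it was called after neither drug. It was 1.22 higher in Huh7 control than in Huh1 control where the brightest probe was 1.88 lower, so no direction is settled for CYP4F2 in these comparisons. Of 108 comparisons in the 12 genes with more than 1 tested probe, the second probe and the brightest were both called in 53, and in 4 of these, including those of CYP4F2, they had opposite signs.

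CYP4V2, a fatty acid hydroxylase mutated in a retinal dystrophy, fell in Huh1 and rose in Huh7 after each drug. Huh1 levels were -3.17, -3.15 and -2.94 in control, -3.72, -3.92 and -3.84 after DSF, and -3.35, -3.98 and -3.94 after 5-FU. Huh7 levels were -4.21, -4.46 and -4.54 in control, -3.88, -3.69 and -3.63 after DSF, and -3.86, -4.07 and -3.83 after 5-FU. The changes were -0.74 and 0.67 for DSF and -0.67 and 0.49 for 5-FU (SE 0.15 each), and those of the lines differed by 1.41 for DSF and 1.15 for 5-FU (SE 0.21 each). Within slide 2, where only replicate 1 of Huh7 DSF was left, the Huh7 value for DSF was 0.53. For CYP4A11, a PPARα target that hydroxylates lauric acid, the brightest probe was called after neither drug. Its second probe was well above background on the 3 Huh1 control arrays and on no drug array of Huh1, and was at least 3.28-fold lower after DSF (adjusted p = 0.0299) and at least 4.76-fold lower after 5-FU (adjusted p = 0.00333). That probe passed the filter only through the Huh1 control group, so these falls were partly set by the filter and are no separate support.

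Among the steroid hormone enzymes, CYP11A1 rose after DSF and, in Huh7, after 5-FU. Its Huh7 levels were -3.50, -3.43 and -3.59 in control, -2.49, -2.21 and -2.14 after DSF, and -1.96, -1.82 and -1.72 after 5-FU, with no overlap between any of these groups. The changes in Huh7 were 1.22 after DSF and 1.67 after 5-FU (SE 0.18 each). In Huh1, where 2 of 3 control arrays were well above background, the DSF change was 0.51 (SE 0.18, adjusted p = 0.0278) and was not called within slide 1 (0.36, adjusted p = 0.139). CYP19A1, the aromatase that makes estrogens, rose after 5-FU by 1.92 in Huh1 and 2.16 in Huh7 (SE 0.32 each). Only 1 of the 3 Huh7 control arrays was well above background, so the size in Huh7 is uncertain, and the second probe was at least 1.55-fold higher there. In Huh1 its levels were -3.99, -5.11 and -5.31 in control, -3.07, -2.78 and -2.80 after 5-FU, and -3.39, -3.50 and -3.63 after DSF, a DSF change of 1.30 (SE 0.32). CYP21A2, which makes glucocorticoid and mineralocorticoid precursors, rose by 0.80 and 0.57 after 5-FU (SE 0.20 each), and these values were -0.17 and -0.04 under normexp background correction, so they rest on how dim spots were corrected. CYP17A1, the step toward androgens, had 1 call, -0.52 after 5-FU in Huh7, which was 0.46 under spike-in scaling.

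The vitamin D genes moved separately. CYP27B1, which makes the active hormone, rose after 5-FU in both lines from -1.20, -1.16 and -1.11 to 0.28, 0.59 and 0.60 in Huh1 and from -1.48, -1.61 and -1.39 to 0.34, -0.09 and 0.16 in Huh7. These changes of 1.65 and 1.64 (SE 0.11 each), or 3.13- and 3.11-fold, differed between the lines by -0.01 (SE 0.15). After DSF CYP27B1 rose by 0.64 in Huh1 (SE 0.11) and changed by 0.10 in Huh7 (adjusted p = 0.448). CYP24A1 rose by 1.11 after DSF in Huh1 (SE 0.36, adjusted p = 0.02), a call lost without control replicate 1 (0.80, adjusted p = 0.0958). Its Huh1 arrays read 0.24, 1.14 and 1.23 in control and 2.00, 1.95 and 1.99 after DSF, without overlap. The SE pools all 6 groups, among them the Huh7 arrays, where the probe was not well above background. The second probe of CYP24A1 rose by 1.02 in Huh1 (adjusted p = 0.02). CYP2R1, the hepatic 25-hydroxylase of vitamin D, fell after DSF by 0.26 in Huh1 and by 0.45 in Huh7 (SE 0.09 each). Within slide 1 the Huh1 value was -0.25 (adjusted p = 0.0689) and was not called. Within slide 2, where only replicate 1 of Huh7 DSF was left, the Huh7 value was -0.28. After 5-FU CYP2R1 fell by 0.52 in Huh1, and the value was 0.31 under spike-in scaling.

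CYP26A1 and CYP26B1, which degrade retinoic acid, were called higher after both drugs in Huh1 and after neither in Huh7. CYP26B1 stood at -4.86, -5.18 and -4.69 after DSF against -6.66, -5.70 and -6.24 in control, of which 1 of 3 was well above background, a change of 1.29 (SE 0.19, adjusted p = 7.62e-05). After 5-FU it rose by 0.72 (SE 0.19), a value of -0.19 under normexp correction. CYP26A1 rose by 0.72 after DSF and 0.64 after 5-FU (SE 0.22 each), and without control replicate 1 these were 0.41 (adjusted p = 0.0658) and 0.33 (adjusted p = 0.132). CYP26C1 fell after 5-FU in Huh7 by 0.85 (SE 0.21), and this was 0.13 under spike-in scaling.

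Of the oxysterol and bile acid enzymes tested, CYP39A1, which hydroxylates 24-hydroxycholesterol, rose after 5-FU. Its levels went from -3.07, -2.63 and -2.56 to -1.58, -1.08 and -1.15 in Huh1 and from -2.83, -2.80 and -2.72 to -1.02, -1.13 and -0.69 in Huh7. The changes were 1.49 and 1.84 (SE 0.15 each). CYP27A1, the mitochondrial sterol 27-hydroxylase of bile acid synthesis, fell after DSF in Huh1 by 1.00 (SE 0.18, adjusted p = 0.00051), from 4.58, 4.90 and 4.82 to 3.79, 3.77 and 3.75. After 5-FU in Huh1 its change was -0.28 (adjusted p = 0.23) and became -0.59 (adjusted p = 8.91e-05) without 5-FU replicate 1, which read 5.11 beside 4.15 and 4.20. CYP20A1, which has no settled function, rose after 5-FU by 0.31 in Huh1 and 0.89 in Huh7 and after DSF by 0.84 in Huh7 (SE 0.07 each). Its second probe rose by 0.23 and 0.25 after 5-FU and, after DSF, by 0.55 in Huh1 (adjusted p = 8.68e-05) as well as 0.36 in Huh7, and its changes did not differ detectably between the lines, at -0.19 for DSF (adjusted p = 0.214) and 0.03 for 5-FU (adjusted p = 0.888).

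Whether a drug effect differed between the lines was tested by subtracting the Huh1 change from the Huh7 change. For DSF 16 of 39 genes differed, against 40.3% of all tested probes, and for 5-FU 15, against 36.6%. For 5-FU 13 of the 15 differences were toward higher values in Huh7, as for 18.8% of all tested probes. Among these were CYP3A5 (1.56, SE 0.25), CYP3A7 (1.41, SE 0.24) and CYP11A1 (1.48, SE 0.25). For DSF the largest difference in either direction among genes well above background on all 18 arrays was that of CYP1B1 (1.89, SE 0.31), followed by CYP4V2 (1.41, SE 0.21) and CYP4F3 (1.32, SE 0.16). Keeping DSF arrays to the slide of their controls left only replicate 1 of Huh7 DSF, so no number is given for that fit.

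**Figure D5:**
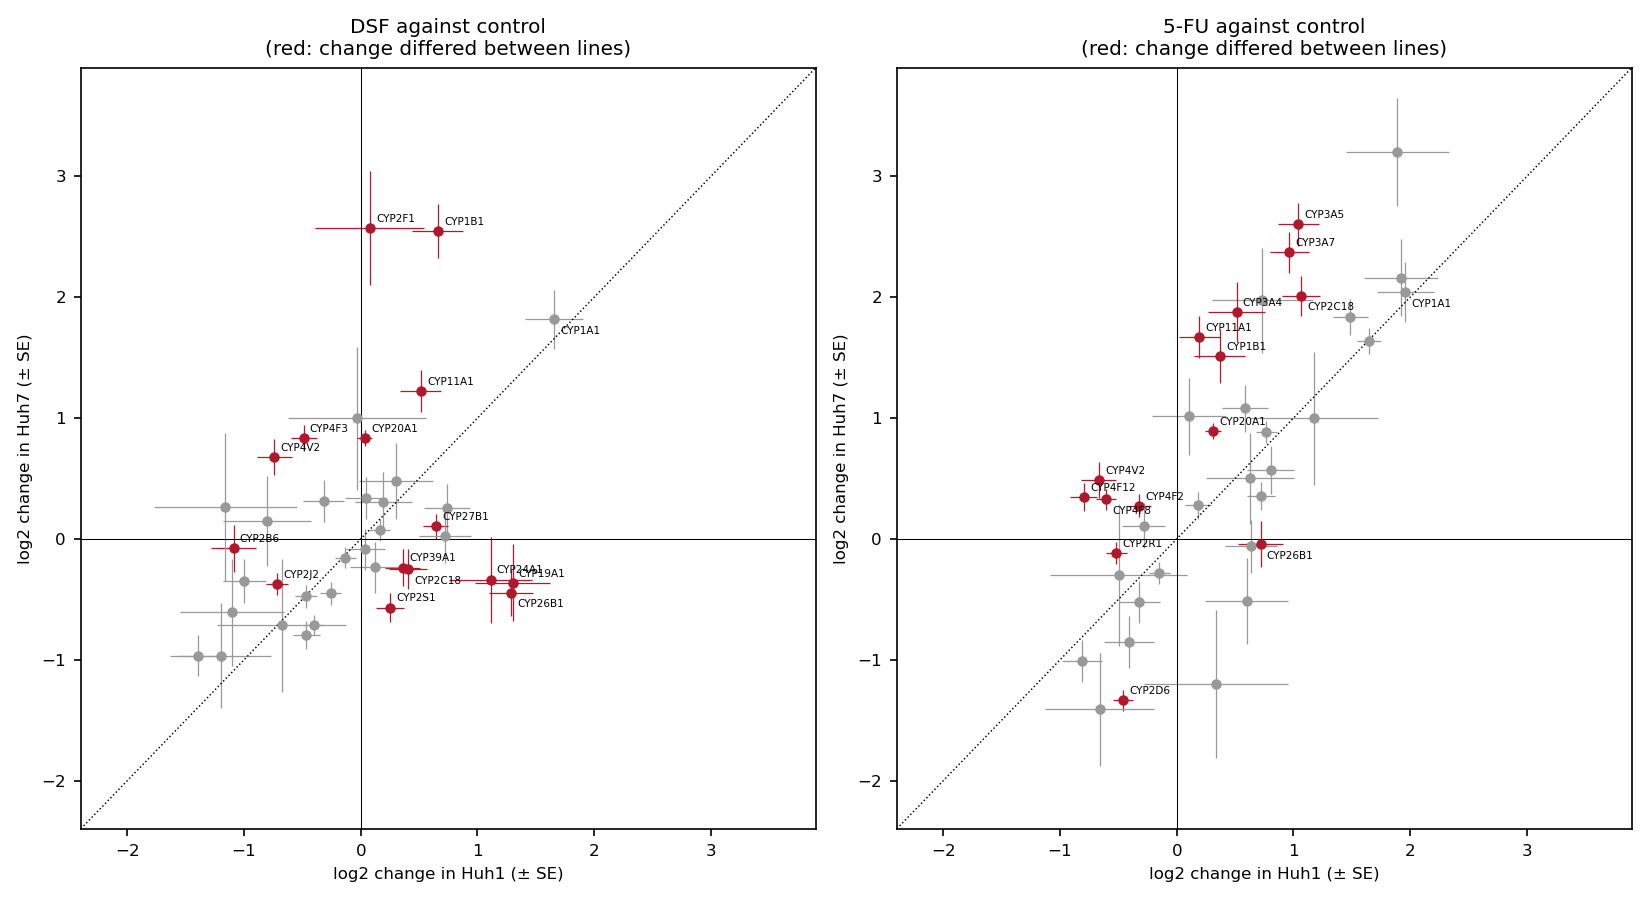
Change after DSF (left) and after 5-FU (right) in Huh1 (x axis) and Huh7 (y axis), log2 ± SE, for 38 tested CYP genes, with the dotted line marking equal change and red points marking genes whose change differed between the lines at adjusted p under 0.05 (these and CYP1A1 are named). After 5-FU most red points lie above the dotted line, and CYP1A1 lies near it in both panels.

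Set directly against each other, at doses that differ (0.1 µM and 1 µM), DSF and 5-FU left different CYP levels. In Huh1 22 of 39 genes differed, 5 higher and 17 lower after DSF than after 5-FU, where 49.2% of all tested probes differed (28.7% higher and 20.6% lower). In Huh7 the number was 27, 7 higher and 20 lower, where 60.5% differed (35.6% and 25.0%). Genes of the CYP2C and CYP3A clusters were lower after DSF: CYP2C8, CYP2C18 and CYP2C19 in each line, and CYP3A5 and CYP3A7 in each line with CYP3A4 in Huh7. Of these, CYP2C8 and CYP3A4 passed the filter only through the 5-FU groups, which partly sets their direction. CYP1A1 was not called in this comparison, at -0.30 in Huh1 and -0.23 in Huh7 (SE 0.25 each).

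Genes that serve or control the P450 enzymes were read from a fixed list. Of 8 tested genes of electron supply and heme metabolism, 1 rose and 4 fell after DSF in Huh1 (23.9% and 20.3% of all tested probes), and 2 rose and 4 fell in Huh7 (27.3% and 19.4%). After 5-FU 2 rose and 4 fell in Huh1 (22.2% and 26.0%), and 3 rose and 2 fell in Huh7 (27.3% and 29.7%). POR, the electron donor of microsomal P450 enzymes, was not analysed here. Of 17 tested receptors and transcription factors, 4 rose and 8 fell after DSF in Huh1, 1 rose and 7 fell in Huh7, 7 rose and 5 fell after 5-FU in Huh1, and 8 rose and 6 fell in Huh7, beside the same shares of all tested probes.

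AHR rose after DSF in Huh1 by 0.71 (SE 0.12) and after 5-FU by 1.13 in Huh1 and 0.44 in Huh7, and changed by 0.12 after DSF in Huh7 (adjusted p = 0.43), where CYP1A1 and CYP1B1 were called higher. NR1I2 rose after 5-FU by 0.55 in Huh1 and 2.22 in Huh7 (SE 0.13 each) and fell after DSF in Huh7 by 0.66. NR1I3 rose after 5-FU by 1.22 and 0.97 (SE 0.30 each) and fell by 0.96 after DSF in Huh1. HNF4A, a liver factor that many CYP genes need, fell after DSF by 0.90 in Huh1 and by 0.67 in Huh7 and after 5-FU in Huh7 by 0.49 (SE 0.09 each). These are transcript levels of the factors, and their activity was not measured.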

How the data were processed

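RNA of 18 samples was measured on 1-color Agilent arrays, 3 per group. Per the labels and file headers, Agilent Feature Extraction 10.7.1.1 made the deposited processed signal, a linear intensity after background subtraction that is not scaled between arrays. The authors also deposited a table of normalized intensity values, made in GeneSpring, which served as an alternative.

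Here the log2 intensities of spots without an outlier flag were averaged per probe, and the 75th percentile of the array was subtracted. Of 42405 probes 78 had an array without an unflagged spot and were left out. A probe was tested when every array of 1 or more groups had it flagged well above background, which 29894 probes met. Between 25341 and 30094 probes passed this flag on an array, and the number of arrays limits the precision. All 18 arrays entered a single limma fit (limma 3.58.1, R 4.3.3) of 6 groups, two-sided, with Benjamini-Hochberg adjustment over all tested probes within a comparison. Scripts were tested on simulated data. Python 3.11.15, pandas 2.3.3 and Biopython were used for tables, motifs and the alignment of the promoter pair.

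Probes were named through RefSeq accessions (25736 probes, 19720 genes), and names alone were used because the array was designed on another build. The genes named with values were those called after a drug in both lines, the 6 largest called changes per line and drug without overlap of arrays, the 6 largest called differences between control groups, those differing between lines with opposite signs, and those seen in 1 line only. The values of 1 tested gene are not reported here or drawn, and it stays in the counts and medians. The other tested genes were added after their values were seen. The members and all lists were chosen with earlier results of these data known. A value below background is a bound that holds for this background correction.

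Alternatives were quantile, median and spike-in scaling (7 spike-in probes), normexp correction (offset 50) on the median spot and background signals, the authors' table, no filter, a filter on all arrays, the mean over probes, slide as a block, arrays within a slide, the replicate number as a block and leaving out each array. Within a slide, Huh1 DSF kept replicates 1 and 2 and Huh7 DSF kept only replicate 1. Averaging the closest pair of each group, and leaving out 2 Huh1 arrays together, were chosen after seeing the data.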

Additional observations from a re-analysis of the deposited data

Results flagged for a closer look

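Genes whose change after a drug differed between Huh7 and Huh1, by the test of the difference itself, are listed here with that difference, the Huh1 change subtracted from the Huh7 change. For DSF, larger values in Huh7 were found for CYP2F1 (2.50), CYP1B1 (1.89), CYP4V2 (1.41), CYP4F3 (1.32), CYP2B6 (1.01), CYP20A1 (0.80), CYP11A1 (0.71) and CYP2J2 (0.35). CYP4V2 and CYP4F3 fell in Huh1 and rose in Huh7, CYP2J2 fell in both lines, and CYP2B6 was called only in Huh1, where it fell. Smaller values in Huh7 were found for CYP26B1 (-1.73), CYP19A1 (-1.66), CYP24A1 (-1.45), CYP2S1 (-0.82), CYP2C18 (-0.65), CYP39A1 (-0.60) and CYP27B1 (-0.54). The value of CYP24A1 is no measured difference in change, since the gene was not well above background on any Huh7 array. Only 1 of 3 control arrays was well above background for CYP26B1 in Huh1 and for CYP19A1 and CYP2F1 in Huh7. The size of these 3 values is therefore uncertain. DSF arrays of each line lay partly on another slide than their controls. Within slides only replicate 1 of Huh7 DSF was left, so no calls are given for that fit.

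For 5-FU, larger values in Huh7 were found for CYP3A5 (1.56), CYP11A1 (1.48), CYP3A7 (1.41), CYP3A4 (1.36), CYP4F12 (1.15), CYP4V2 (1.15), CYP1B1 (1.14), CYP2C18 (0.95), CYP4F8 (0.93), CYP4F2 (0.59), CYP20A1 (0.58) and CYP2R1 (0.40). CYP3A4 was not well above background on any control array of either line, so its value is no measured difference in change. Smaller values in Huh7 were found for CYP2D6 (-0.88), which fell in both lines, and CYP26B1 (-0.76), whose size is uncertain because of its Huh1 control arrays. The probes of CYP4F2 gave opposite signs for this difference, the second probe reading -4.87 (SE 0.31) with all Huh7 5-FU arrays not well above background. The second probe of CYP20A1 gave no called difference, at -0.19 for DSF and 0.03 for 5-FU.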

How the results depend on the processing

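Of 154 called gene changes put through the alternatives, 2714 of 3036 recomputed values kept direction and call, 304 kept direction without a call, and 18 turned. With the authors' table all 154 were kept. The cause of a change in a value was not tested, except that fewer arrays or genes entered some fits. In what follows, the share or number of all probes called in the same fit stands in brackets. Calls rising after DSF in Huh1 numbered 5 with the filter on all arrays (fewer genes tested, 24.3% of all probes). They numbered 5 with slide as a block (22.6%) and 4 with the closest pair averaged (16.3%), beside 9 (23.9%). Falls there numbered 6 under spike-in scaling (8.02%), beside 11 (20.3%). Falls after DSF in Huh7 were 11 without both Huh1 arrays that stood apart (21.4%), beside 7 (19.4%). After 5-FU in Huh1, spike-in scaling gave 30 rises (74.8%), beside 16 (22.2%), and 0 falls (1.22%), beside 7 (26.0%). Falls there were 13 with normexp (43.7%), 12 without a filter (27.7%) and 4 with the closest pair (16.8%). In Huh7 the falls were 1 under spike-in scaling (3.47%) and 3 with the closest pair (23.6%), beside 6 (29.7%). Genes higher in Huh7 control were 4 with the filter on all arrays (33.1%) and 5 with slide as a block (8183 of 29894 probes), beside 8 (34.5%). Differences between lines for DSF numbered 7 with slide as a block (8695 of 29894 probes) and 8 with the closest pair (6285), beside 16 (12051). For 5-FU they numbered 9 with the closest pair (6006), beside 15 (10935). DSF against 5-FU in Huh1 gave 14 with the closest pair (10276 of 29894 probes), beside 22 (14713). Leaving out 1 array of the compared groups at a time gave 8 to 10 rises (20.9% to 23.5%) and 9 to 11 falls (17.3% to 19.3%) after DSF in Huh1. In Huh7 it gave 7 to 8 (22.1% to 29.8%) and 7 to 8 (15.7% to 20.4%). After 5-FU there were 15 to 16 rises (18.8% to 23.3%) and 6 to 9 falls (22.4% to 25.9%) in Huh1, and 19 to 23 (24.9% to 26.4%) and 5 to 6 (27.0% to 28.4%) in Huh7. For the other comparisons the shares of all probes are not given. Differences between lines were 10 to 18 for DSF (10 without Huh7 DSF replicate 3) and 13 to 17 for 5-FU. In Huh7 control 7 to 8 were higher and 25 to 27 lower, and DSF against 5-FU gave 19 to 22 in Huh1 and 24 to 28 in Huh7.

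Spike-in scaling turned the 5-FU falls in Huh1 of CYP2D6 (0.37), CYP2R1 (0.31), CYP2U1 (0.02), CYP4F12 (0.03), CYP4F2 (0.51), CYP4F8 (0.22) and CYP4V2 (0.16) and those in Huh7 of CYP17A1 (0.46), CYP26C1 (0.13) and CYP2W1 (0.70). CYP2W1 also turned under quantile normalization (0.27). Normexp correction turned the 5-FU rises of CYP21A2 in Huh1 (-0.17) and Huh7 (-0.04) and of CYP26B1 in Huh1 (-0.19), and its difference between lines became 0.00. The mean over probes turned CYP4F2 after 5-FU in Huh1 (0.08) and Huh7 (-2.05) and its difference between lines (-2.14).

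The replicate numbers did not pair the samples: deviations of same-numbered arrays correlated at -0.093 to 0.103 (median -0.025, 45 pairs) and those of other pairs at -0.099 to 0.094. With the replicate block, 9 genes rose and 10 fell after DSF in Huh1 (23.2% and 19.6% of all tested probes), and 7 and 7 in Huh7 (26.3% and 19.0%). After 5-FU 16 rose and 7 fell in Huh1 (21.7% and 25.4%), and 23 and 6 in Huh7 (27.0% and 29.1%). In Huh7 control 7 were higher and 27 lower (10172 and 10664 of 29894 probes). Differences between lines numbered 14 for each drug (11505 probes for DSF and 10457 for 5-FU). DSF against 5-FU gave 23 in Huh1 (14316 probes) and 25 in Huh7 (17747).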
